A study of Allium sativum with 18 samples.

Results

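In garlic bulbs, 31 of 57561 genes rose at least 4-fold, on the log scale given below, as the bulb began to enlarge in the variety Yuanjiangyangsuan. On that scale they differed by less than 1.41-fold between the same stages in both Chalingzipisuan and Ershuizao. The genes were chosen by a rule on these stage differences, taken on the log2(FPKM + 0.5) scale, where FPKM is the number of sequenced fragments scaled for the length of the gene and the size of the library. In plain mean FPKM a rise can be smaller, as in *Asa7G05962.1* at 3.57-fold. The difference in Yuanjiangyangsuan had to be at least 2 (log2), with each enlarging library above each library before enlargement. The differences in the other varieties had to lie within 0.5 (log2) of 0, and the mean FPKM value over the 6 libraries of each of those varieties had to be at least 1. Of all genes, 25904 met that FPKM minimum and could have been chosen. Stage differences and thresholds passed by them therefore only describe how the genes were chosen, and no such count is read as evidence.

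A garlic bulb forms when buds in the leaf axils grow into storage leaves, the cloves. Long days and a preceding cold period start this growth, and garlic varieties differ in how much of either they need. Photoperiod components such as FT-like proteins, the gibberellin pathway and auxin signalling are known to act on the formation of bulbs and tubers. No name, family or role was available here for any of the 31 identifiers, none of which is named in the text of the study, so that the genes are described by their levels, lengths and identifiers.

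The series held 18 RNA libraries from field-grown garlic (*Allium sativum*). Bulb parts of Chalingzipisuan, Ershuizao and Yuanjiangyangsuan were collected in February, before enlargement, and in March, under enlarging growth, with 3 individuals for each variety and stage. Each variety stands for 1 genotype grown at 1 site in 1 season, and the stage cannot be told apart from the month of collection. The deposited labels name the tissue as leaf and the stage as that of bulbs, and the study describes bulbs, which was followed. Between 10340511 and 14117986 fragments fell on genes in each library. A principal component analysis used the genes that reached an FPKM of 0.5 in 3 or more of the 18 libraries. Its first component (41.5% of the variance) set Yuanjiangyangsuan apart from the other varieties and the second (28.2%) separated the stages. The library of Chalingzipisuan under enlarging growth, replicate 3, lay among the libraries before enlargement on the second component, and without it the rule found 26 genes. In bulk bulb tissue, fewer cells of a type and less RNA per cell cannot be told apart.

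A rise confined to Yuanjiangyangsuan in this sense was uncommon among the genes that rose there. Of all genes, 928 rose by at least 2 (log2) in Yuanjiangyangsuan, 895 of them without overlap between the stages, and 780 of these met the FPKM minimum. The background share of genes with no overlap in the upward direction was 22.6%. Of the 780 genes, 471 also rose by at least 1 (log2) in both other varieties, 134 in Chalingzipisuan only, 65 in Ershuizao only and 110 in neither. The median stage difference of the 780 was 1.68 (log2) in Chalingzipisuan and 1.39 in Ershuizao. Within the limit of 0.5 lay 81 of them in Chalingzipisuan and 86 in Ershuizao, and the 31 within it in both made up 3.97% of the 780, against 48.0% (12421 genes) of all genes above the FPKM minimum. The same rule turned to the other varieties found 3 genes that rose in Chalingzipisuan alone and 1 in Ershuizao alone. For genes that fell in 1 variety alone it found 17 in Yuanjiangyangsuan, 0 in Chalingzipisuan and 1 in Ershuizao. These rules also required stages without overlap. On the second principal component, enlarging replicate 3 of Chalingzipisuan stood at -52.1 beside 106 and 88.6 for its mates. Enlarging replicate 2 of Ershuizao stood at 2.88 beside 60.1 and 80.4. The genes open to each rule were not counted and the part of these libraries was not tested, so the counts are not compared between varieties.

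**Figure D1:**
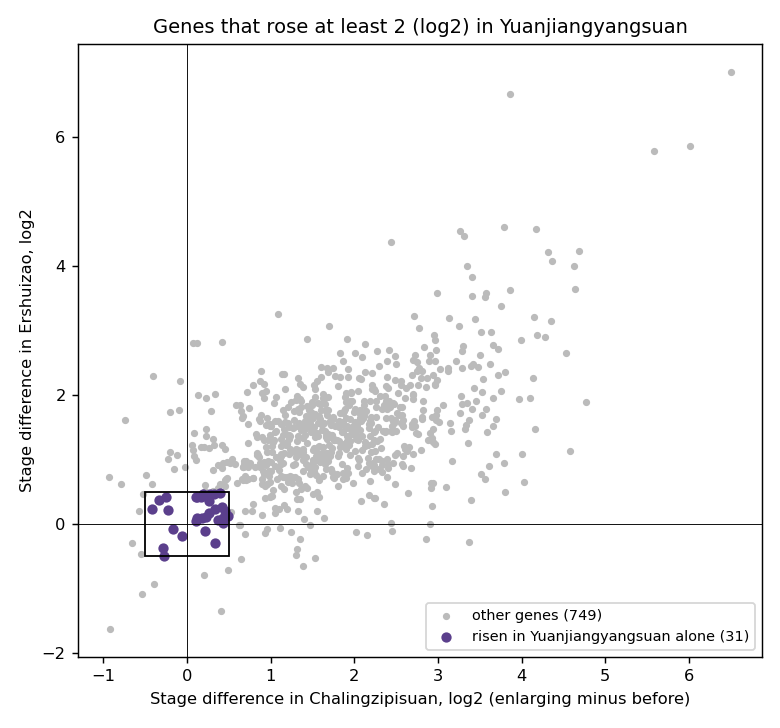
Stage difference (log2, enlarging minus before) in Ershuizao against that in Chalingzipisuan for the 780 genes that rose by at least 2 in Yuanjiangyangsuan, each point a gene. The box spans 0.5 on either side of 0 and holds the 31 genes, while the bulk of the 780 lies at positive differences in both other varieties.

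Among the 31 genes the rise in Yuanjiangyangsuan ran from 2.01 to 3.55 (log2), with a median of 2.24. The gene nearest inside the limit was *Asa6G05819.1*, with a rise of 2.01 from a mean of 2.73 to 12.9 FPKM. The nearest outside was *Asa4G02090.1*, with 1.99 from 57.8 to 229 FPKM, and with differences of -0.26 in Chalingzipisuan and 0.00 in Ershuizao. At the limit of 0.5, *Asa0G05581.1* lay inside with -0.49 in Ershuizao, and *Asa4G03288.1* lay outside with 0.52 there, 0.21 in Chalingzipisuan and a rise of 3.00 in Yuanjiangyangsuan. The limits thus cut through a continuous spread of genes. In a limma fit of the 6 Yuanjiangyangsuan libraries, 30 of the 31 passed P under 0.05 with more than 2-fold and also the adjusted P, beside a background of 11.8% of 27673 genes for P and 10.4% for adjusted P in the upward direction. The exception was *Asa7G05962.1*. These counts follow from the rule and are no test of the genes.

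The small differences in the other varieties were measured less closely than the limit of 0.5 implies. The median standard error of the stage difference over the 31 genes was 0.46 (log2) in both Chalingzipisuan and Ershuizao, taken from a fit of all 18 libraries. The 95% interval lay inside a 2-fold change in Chalingzipisuan for 7 genes and in Ershuizao for 10, in both for 7 and in neither for 21. It reached a rise of 2 for 2 genes in Chalingzipisuan and for 3 in Ershuizao, with upper bounds of up to 2.93 and 2.60, both for *Asa7G05962.1*. A small difference here is therefore no evidence that the level stayed the same in those varieties. The differences leaned upward, with a median of 0.19 in Chalingzipisuan (23 above 0 and 8 below) and 0.21 in Ershuizao (25 above 0 and 6 below). Of all genes within the limit, 46.3% lay above 0 in Chalingzipisuan and 50.3% in Ershuizao. Both differences were above 0 in 21 of the 31 genes and below 0 in 4. The limit cut the 31 from the 780 genes that rose, whose median differences were 1.68 in Chalingzipisuan and 1.39 in Ershuizao. The upward lean therefore describes the choice of genes, and nothing is read from it.

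**Figure D2:**
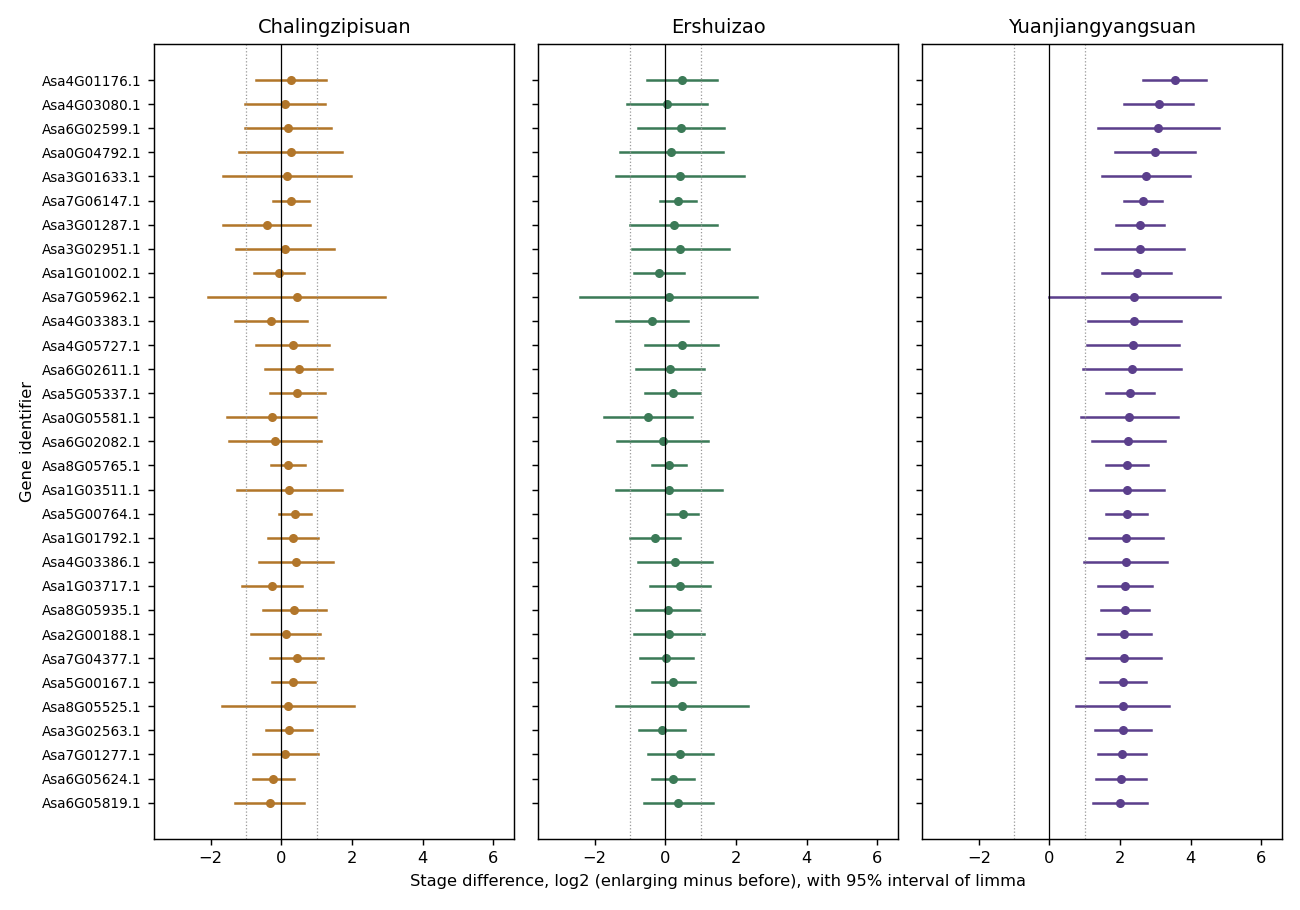
Stage difference of each of the 31 genes (log2, enlarging minus before) in the 3 varieties, ordered by the rise in Yuanjiangyangsuan, with points at the estimate, bars for the 95% interval of limma and dotted lines at a 2-fold change. In Chalingzipisuan and Ershuizao most bars cross at least 1 of the dotted lines, and the bars of *Asa7G05962.1* are the widest.

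A rise in a single variety can start from a lower level before enlargement or end at a higher one. The gap between Yuanjiangyangsuan and the mean of the other varieties (log2) had a median of -1.40 before enlargement, from -4.79 to 1.10, and was below 0 in 27 of the 31 genes. Under enlarging growth its median was 0.96, from -2.75 to 2.85, and it was above 0 in 26. Over all genes above the FPKM minimum the medians were -0.05 and -0.12, and over the 780 genes they were -0.70 and 0.35. Since the rule set the change of this gap, its sign at the stages is a description. With a gap of 1 (log2) as the limit, 13 genes were low in Yuanjiangyangsuan before enlargement only, 11 were high under enlarging growth only, 3 were both low before and high afterwards, 3 were low at both stages and 1 was high at both. The 3 libraries of Yuanjiangyangsuan before enlargement all lay below the 6 others of that stage in 12 genes, beside a background of 19.5%. The 3 enlarging libraries all lay above the 6 others of their stage in 12 genes, beside 10.5%, and in 11 genes above all 15 other libraries. No gene had both kinds of separation, and 7 had neither. The rule itself placed the enlarging libraries of Yuanjiangyangsuan above those before enlargement. For the comparison with all 15 libraries, and for both or neither separation, no share over all genes was counted. These counts therefore only describe the 31 genes.

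**Figure D3:**
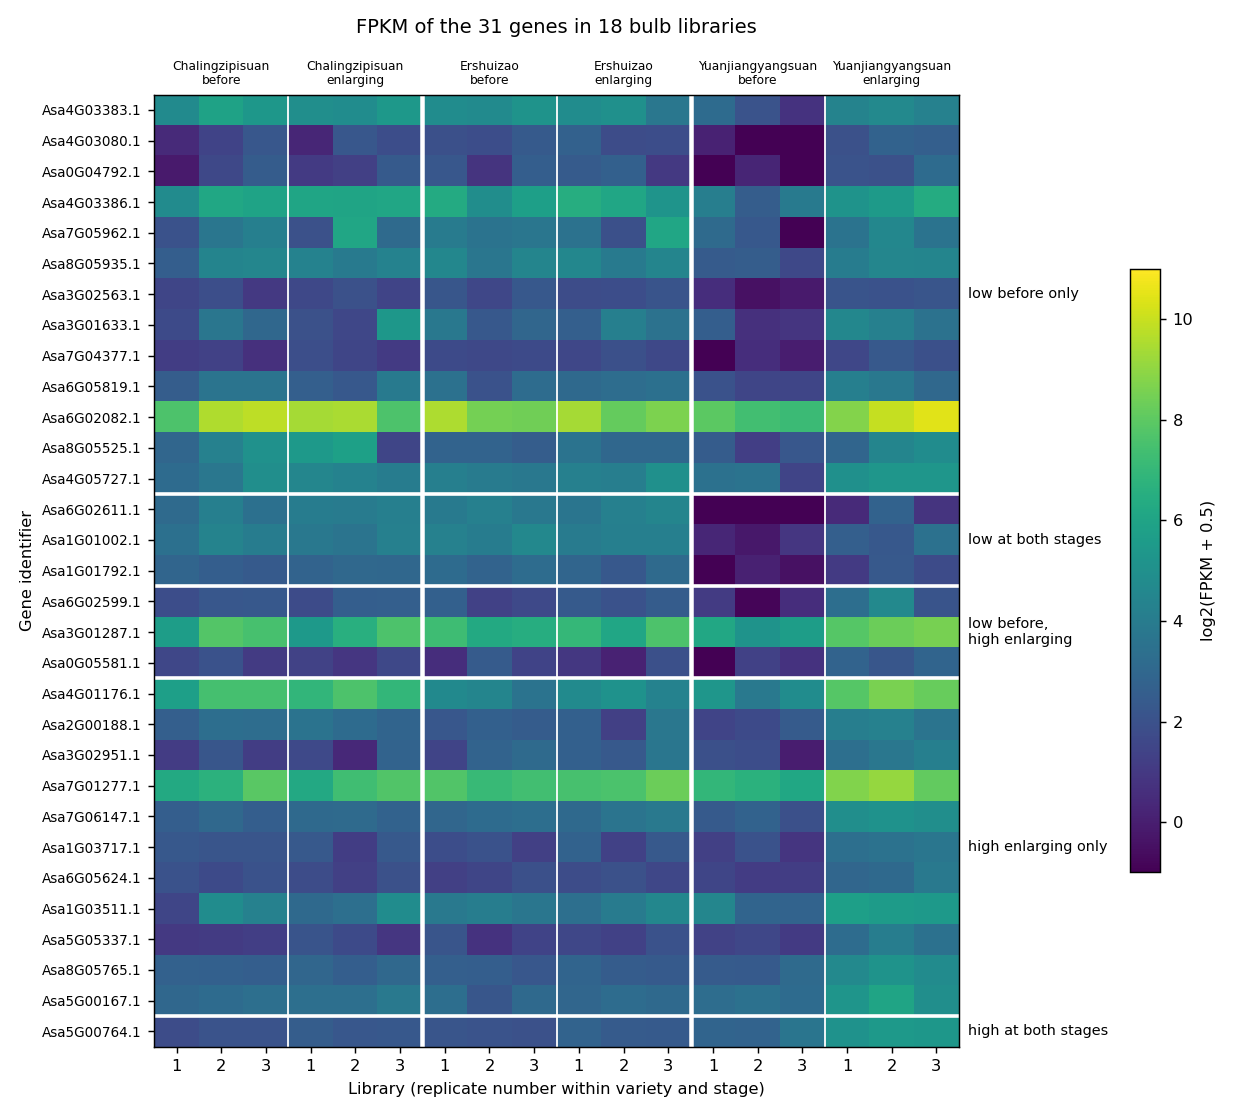
Level of the 31 genes, log2(FPKM + 0.5) as colour, in the 18 libraries, with genes in rows grouped by the gap to the other varieties and libraries in columns by variety, stage and replicate. The dark cells in the 3 columns of Yuanjiangyangsuan before enlargement stand out in the upper groups and the bright cells in its 3 enlarging columns in the lower groups.

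The 11 genes that were high under enlarging growth only began at gaps to the other varieties of -0.92 to 0.28 (log2), below 0 in 8 of them. *Asa4G01176.1* had the largest rise of the 31, from 38.6, 13.8 and 28.1 FPKM before enlargement to 227, 381 and 297 under enlarging growth in replicates 1 to 3 of Yuanjiangyangsuan. In Chalingzipisuan it read 54.7, 175 and 174 before enlargement and 120, 200 and 122 afterwards. In Ershuizao it read 25.5, 21.9 and 11.4, then 26.1, 33.8 and 19.5. The enlarging libraries of Yuanjiangyangsuan were above all 15 others, and before enlargement this variety overlapped Ershuizao and lay below all 3 libraries of Chalingzipisuan. *Asa7G01277.1*, 1 of the 2 most abundant genes of the set under enlarging growth, was the longest at 1938 bases. It went from 123, 102 and 71.0 FPKM to 421, 547 and 278 in Yuanjiangyangsuan. The other varieties ranged from 78.9 to 247 before enlargement and from 75.1 to 320 under enlarging growth. The highest enlarging library of Ershuizao, at 320, therefore overlapped the lowest of Yuanjiangyangsuan, at 278.

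In most further genes of this group, the enlarging libraries of Yuanjiangyangsuan stood apart from all others. *Asa8G05765.1* held 4.93, 4.84 and 8.37 FPKM before and 24.4, 35.0 and 27.3 under enlarging growth in Yuanjiangyangsuan, while the 12 libraries of the other varieties spanned only 4.25 to 7.77. *Asa7G06147.1* went from 4.71, 6.25 and 3.32 to 29.7, 34.6 and 30.5, against 5.43 to 14.1 in the others. *Asa5G00167.1* went from 9.26, 10.5 and 8.72 to 38.2, 64.1 and 29.8, against 4.14 to 14.1. For all 3 genes the lowest enlarging library was more than 2-fold above the highest of the 15 others. *Asa5G05337.1* rose from 2.10, 2.43 and 1.52 to 8.99, 16.2 and 10.7 FPKM (others 1.19 to 3.92). *Asa6G05624.1* rose from 2.37, 1.72 and 1.77 to 7.24, 8.07 and 14.1 (others 1.91 to 3.62). *Asa1G03717.1* rose from 1.93, 3.63 and 1.32 to 9.82, 11.1 and 12.4 (others 1.76 to 6.31). These 3 genes were scarce in every library outside enlarging Yuanjiangyangsuan. *Asa1G03511.1* rose from 22.6, 6.88 and 6.61 to 53.4, 48.2 and 43.3, and its spread elsewhere was wide, from 2.32 in replicate 1 of Chalingzipisuan before enlargement to 28.2 in replicate 2. The 2 remaining genes overlapped the others. *Asa2G00188.1* went from 2.22, 2.77 and 5.03 to 17.2, 18.5 and 11.7 FPKM, and replicate 3 of enlarging Ershuizao stood at 12.9. *Asa3G02951.1* went from 3.28, 3.02 and 0.458 to 10.03, 13.1 and 17.6, and the same library of Ershuizao stood at 12.4.

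The 13 genes that were low before enlargement only ended at gaps to the other varieties of -0.36 to 0.96 (log2) under enlarging growth, above 0 in 11 of them. *Asa4G03080.1*, with the second largest rise, had 0.593, 0 and 0 FPKM before enlargement and 3.45, 6.35 and 5.80 under enlarging growth. The other varieties held 0.826 to 4.85 and 0.715 to 6.20 FPKM at these stages. All 3 libraries before enlargement lay below the others and the enlarging ones overlapped them. The values rest on 2 fragments before enlargement and 49 afterwards, a ratio of 25.3 per fragment on genes with an exact 95% counting interval of 6.64 to 215. *Asa0G04792.1* had 0, 0.671 and 0 FPKM, then 3.66, 3.41 and 8.67, from 3 fragments and 69 (ratio 23.7, interval 7.79 to 118). The rise of these genes on the log2(FPKM + 0.5) scale depends on the 0.5 added, and the intervals cover counting error only. *Asa6G02082.1* was the most abundant of the set under enlarging growth. Its FPKM values in Yuanjiangyangsuan were 251, 162 and 144 before enlargement and 444, 989 and 1419 afterwards. In Chalingzipisuan they were 201, 751 and 893, then 661, 710 and 202, and in Ershuizao 728, 362 and 342, then 670, 290 and 392. Single libraries of Chalingzipisuan at each stage reached the low range of Yuanjiangyangsuan, and the groups overlapped at both stages.

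Several of these genes lay below all libraries of the other varieties before enlargement, some by a wide margin and others narrowly. *Asa4G03383.1* stood at 8.67, 3.74 and 1.21 FPKM in Yuanjiangyangsuan against 26.0 to 60.3 in the other varieties. *Asa4G03386.1* stood at 17.2, 5.23 and 14.7 against 27.5 to 80.9. Under enlarging growth both overlapped the others, at 20.1, 24.4 and 18.8 against 12.9 to 42.2 for *Asa4G03383.1*, and at 34.9, 46.2 and 82.1 against 36.5 to 89.2 for *Asa4G03386.1*. Their identifiers are 3 numbers apart, and neither gene numbered between them rose in Yuanjiangyangsuan (stage differences of 0.13 and 0.00 for *Asa4G03384.1* and *Asa4G03385.1*, the latter nearly undetected). Further low genes, which were all under the 6 libraries of the other varieties before enlargement, were *Asa8G05935.1* (4.94, 5.37 and 2.53 FPKM against 5.43 to 22.9), *Asa3G02563.1* (1.01, 0.232 and 0.421 against 1.49 to 4.37), *Asa7G04377.1* (0, 0.977 and 0.474 against 1.07 to 2.74), *Asa8G05525.1* (5.04, 1.86 and 4.34 against 5.28 to 32.6) and *Asa6G05819.1* (3.50, 2.35 and 2.33 against 3.51 to 11.9). For all of these but *Asa3G02563.1* the highest library of Yuanjiangyangsuan came close to the lowest of the others. Their separation therefore rests on narrow gaps.

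The remaining 3 genes of the group varied widely between replicates. *Asa3G01633.1* went from 5.49, 1.10 and 1.33 to 23.0, 18.01 and 11.1 FPKM in Yuanjiangyangsuan, and read 3.48, 2.47 and 40.9 in enlarging Chalingzipisuan. *Asa7G05962.1* went from 8.32, 4.38 and 0 to 11.3, 22.8 and 11.3, and read 3.43, 68.4 and 8.30 in enlarging Chalingzipisuan and 11.01, 3.37 and 67.1 in enlarging Ershuizao. Single libraries thus set the means of these genes in the other varieties. *Asa4G05727.1* went from 10.5, 11.5 and 2.27 to 32.4, 38.6 and 39.3 FPKM and was alone in the group in lying above all 15 other libraries under enlarging growth, of which the highest was at 31.8.

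The 3 genes that crossed from below to above the other varieties were *Asa6G02599.1*, *Asa3G01287.1* and *Asa0G05581.1*. *Asa3G01287.1* went from 72.1, 34.9 and 50.02 to 228, 318 and 367 FPKM, and its enlarging libraries lay above all others, which ranged from 44.9 to 219. *Asa6G02599.1* went from 1.59, 0.0589 and 1.00 to 9.57, 24.4 and 3.81, against 2.00 to 5.81 in the others, so that its last enlarging library fell within their range. *Asa0G05581.1* went from 0, 2.00 and 1.22 to 6.65, 4.09 and 6.72, against 0.604 to 4.94. *Asa3G01287.1* was thus the only gene of the 3 with more than 100 fragments in every library.

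The 3 genes that were low at both stages remained below the other varieties after their rise. *Asa6G02611.1* was at 0 in all 3 libraries of Yuanjiangyangsuan before enlargement, and at 0.861, 6.42 and 1.26 FPKM (2, 14 and 3 fragments) under enlarging growth. In Chalingzipisuan it read 8.31, 17.5 and 10.4, then 16.2, 15.4 and 17.4, and in Ershuizao 14.7, 18.5 and 13.3, then 12.3, 18.3 and 21.3. No fold change within Yuanjiangyangsuan is given, since a count of 3 fragments corresponds to 1.22 to 1.53 FPKM in its libraries before enlargement and 2 of its 3 enlarging libraries had no more than 3. *Asa1G01002.1* went from 0.710, 0.368 and 1.34 to 5.63, 4.40 and 10.6 FPKM, against 10.2 to 23.9 in the 12 other libraries. *Asa1G01792.1* went from 0, 0.581 and 0.235 to 1.58, 4.63 and 2.89, against 4.44 to 8.84. In *Asa6G02611.1* all 6 libraries of Yuanjiangyangsuan lay below all 12 others, whereas in *Asa1G01002.1* and *Asa1G01792.1* the highest enlarging library reached the lower end of the others. The 1 gene that was high at both stages was *Asa5G00764.1*, at 6.88, 6.65 and 12.1 FPKM before enlargement and 34.6, 43.4 and 40.4 under enlarging growth. Chalingzipisuan held 3.01, 3.74 and 3.64, then 5.32, 4.34 and 4.47, and Ershuizao 3.95, 3.76 and 3.42, then 6.48, 5.02 and 4.79. All 6 libraries of Yuanjiangyangsuan lay above all 12 of the other varieties.

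**Figure D4:**
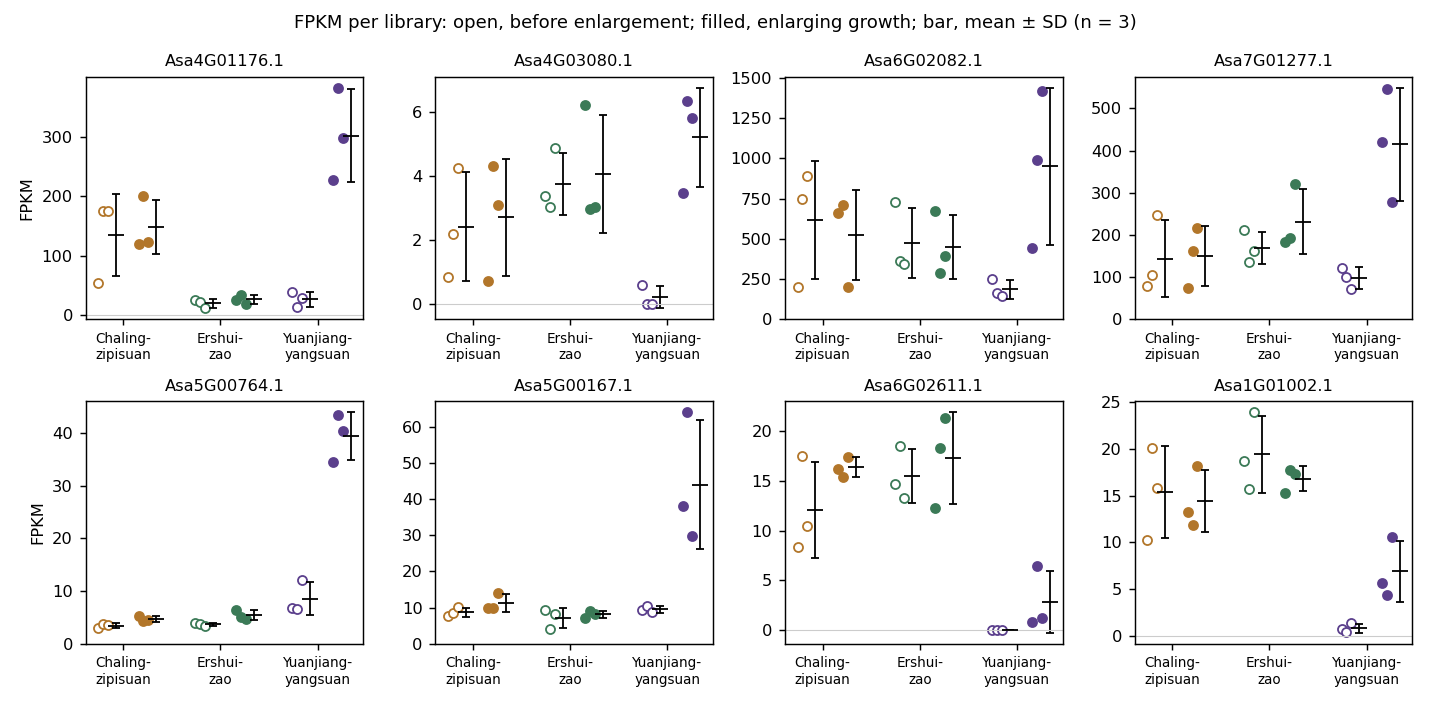
FPKM value in each library of 8 of the 31 genes, by variety, with open points before enlargement, filled points under enlarging growth and bars for the mean ± SD (n = 3). *Asa5G00764.1* is above the other varieties at both stages and *Asa6G02611.1* below them at both, while *Asa4G01176.1* and *Asa5G00167.1* are high in enlarging Yuanjiangyangsuan.

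The level of Yuanjiangyangsuan over both stages, against the mean of the other varieties, is a separate contrast from the stage differences of the rule and was tested with limma over all 18 libraries and 33681 genes. It averages the enlarging libraries of Yuanjiangyangsuan with those before enlargement, so that a gene with no gap before enlargement and a rise of the size the rule required comes to about 1 (log2). Of the 31 genes, 4 were higher and 5 lower in Yuanjiangyangsuan at adjusted P under 0.05 and more than 2-fold, and 22 were not called. The background was 8.91% of the genes tested higher and 14.6% lower, and among genes above the FPKM minimum of the rule, which bears on this level, it was 4.65% and 16.3%. Of the 4 higher genes, *Asa5G05337.1*, *Asa8G05765.1* and *Asa5G00167.1* had gaps of only 0.05, 0.09 and 0.28 before enlargement and of 2.00, 2.14 and 2.08 under enlarging growth, so that their calls rest on the libraries in which the rule required a high level. Nothing is read from the counts of higher or lower genes against the background. *Asa5G00764.1* differed by 1.97 (log2, SE 0.13, limma adjusted p = 3.49e-09) and *Asa5G00167.1* by 1.18 (SE 0.18, adjusted p = 4.58e-05). The gap of *Asa5G00764.1* was 1.10 before enlargement and 2.85 under enlarging growth. Its difference and p-value thus also draw on the libraries in which the rule required a high level. *Asa6G02611.1* differed by -3.77 (SE 0.27, limma adjusted p = 1.34e-08), a value that depends on the 0.5 added because of its zeros, and *Asa1G01002.1* by -2.50 (SE 0.20, adjusted p = 4.65e-08). Also called were *Asa8G05765.1* and *Asa5G05337.1* as higher (1.11 and 1.02) and *Asa1G01792.1*, *Asa4G03383.1* and *Asa4G03386.1* as lower (-2.22, -1.73 and -1.21). The gaps of *Asa4G03383.1* and *Asa4G03386.1* were -3.10 and -2.12 before enlargement but only -0.36 and -0.30 under enlarging growth. Their calls thus rest mostly on the libraries before enlargement, which the rule required to lie below the enlarging ones. The other genes called lower were low at both stages. Without replicate 3 of enlarging Chalingzipisuan, 3 genes were called higher, with *Asa5G05337.1* no longer called, and 5 lower. The median over the 31 genes was -0.23, beside -0.04 for all genes tested and -0.07 for those above the minimum.

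**Figure D5:**
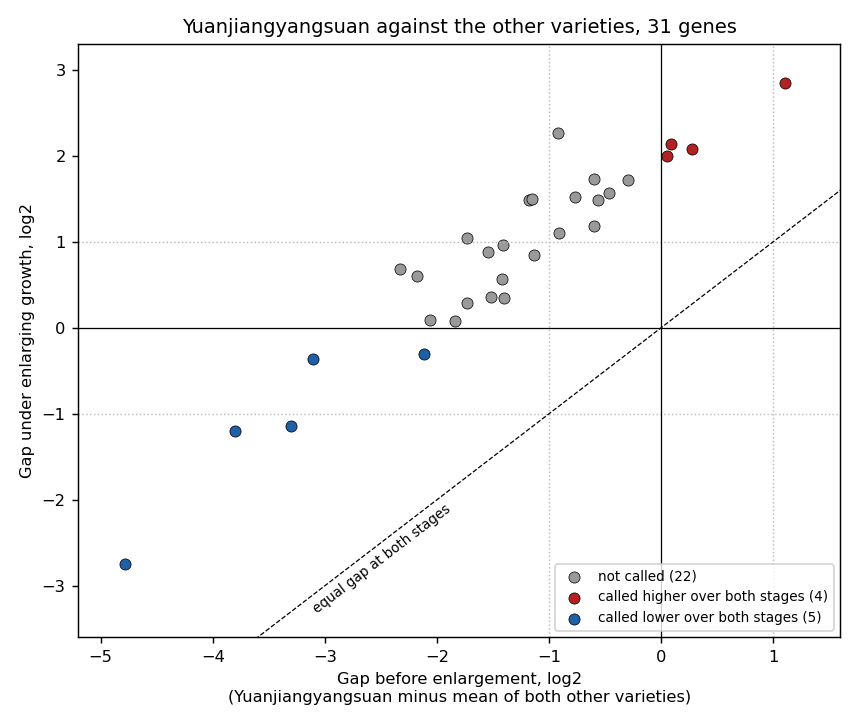
Gap between Yuanjiangyangsuan and the mean of the other varieties under enlarging growth against the gap before enlargement (log2), each point 1 of the 31 genes, coloured by the limma call on the level over both stages. The 4 genes called higher sit at positive gaps at both stages and the 5 called lower at negative gaps at both.

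Calls between Chalingzipisuan and Ershuizao were few, both among these genes and among all genes tested. With both stages together, 0 of the 31 genes were called higher in Ershuizao by limma (1 at unadjusted P under 0.05) and 1 was called lower, beside backgrounds of 0.959% and 0.41% of the genes tested and 0.602% and 0.29% of those above the FPKM minimum. The gene was *Asa4G01176.1*, lower in Ershuizao by 2.55 (log2, SE 0.33, limma adjusted p = 0.00034) and in 6 of 6 libraries below the lowest of Chalingzipisuan. Its levels before enlargement thus fell into a higher range in Chalingzipisuan and a lower one in Ershuizao and Yuanjiangyangsuan. The median difference over the 31 genes was 0.14, against 0.00 for all genes. Without replicate 3 of enlarging Chalingzipisuan, 2 genes were called lower in Ershuizao, with *Asa8G05525.1* added.

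The stage difference of Yuanjiangyangsuan minus the mean of the other 2 ran from 1.74 to 3.18 (log2) over the 31 genes with a median of 2.05. Of these, 15 passed limma's adjusted P under 0.05 with more than 2-fold, beside a background of 1.23% of 33681 genes, and 29 passed unadjusted P, beside 4.75%. The rule used the same contrast, so nothing is read from these counts. The number that passed the adjusted threshold was 19 without replicate 3 of enlarging Chalingzipisuan, 23 without replicate 1 of Chalingzipisuan before enlargement, 9 without replicate 3 of Yuanjiangyangsuan before enlargement and 7 without replicate 2 of Yuanjiangyangsuan under enlarging growth.

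The spread between individuals was wider for the 31 genes than for the median gene, at levels that were also lower in fragments. The median SD of log2 values between replicates was 0.58 in Chalingzipisuan before enlargement, beside 0.31 for all genes above the FPKM minimum. In Yuanjiangyangsuan it was 0.56 beside 0.24 before enlargement and 0.42 beside 0.25 under enlarging growth. In Ershuizao the values were 0.34 beside 0.24 and 0.44 beside 0.30, and in enlarging Chalingzipisuan 0.41 beside 0.37. Replicate 1 of Chalingzipisuan before enlargement was the lowest of its group in 24 of the 31 genes, and in 36.4% of all genes. Its median deviation from the group mean was -0.52 (log2) in the 31 genes and 0.02 in all genes. In Yuanjiangyangsuan before enlargement, replicate 1 was the highest of its group in 17 genes (37.0% of all genes), and under enlarging growth replicate 1 was the lowest in 18 (40.5% of all genes). The part of these libraries in the choice of genes shows when each is left out. Without 1 library of Chalingzipisuan or Ershuizao, 19 to 27 of the 31 genes still met the limit of 0.5 in both varieties, and without 1 library of Yuanjiangyangsuan 21 to 30 still rose by at least 2.

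A few genes, 4 in all, moved past a 2-fold change in another variety when a single library was left out. *Asa8G05525.1* had a stage difference of 1.57 (log2) in Chalingzipisuan without enlarging replicate 3, against 0.19 with it, since that library read 2.38 FPKM and the others 43.3 and 56.9. *Asa3G01633.1* had -1.03 without the same library, against 0.17 with it. *Asa3G01287.1* had -1.07 without replicate 1 before enlargement, against -0.42. *Asa7G05962.1* had 1.31 in Chalingzipisuan without enlarging replicate 1, and in Ershuizao 1.04 without enlarging replicate 2 or -1.02 without enlarging replicate 3. For these 4 genes the small difference in another variety thus depended on single libraries.

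Within the groups of libraries, the 31 genes varied together to a small extent over all pairs. Over the 465 pairs, the median Pearson correlation of deviations from the group means was 0.13, beside 0.00 for pairs of all genes above the minimum, over 18 libraries with 12 degrees of freedom. The genes share libraries, depth and a rule, so this is a description. A correlation above 0.8 was found in 3 pairs (0.645%), against 1.17% of all pairs. These were *Asa3G01633.1* with *Asa6G05819.1* (0.86), *Asa8G05765.1* with *Asa5G00764.1* (0.84) and *Asa6G02082.1* with *Asa8G05525.1* (0.83). Part of the correlation of *Asa8G05765.1* with *Asa5G00764.1* was their same order of levels in Yuanjiangyangsuan before enlargement, with replicate 3 the highest.

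At the median, the genes were shorter and more thinly covered than all genes above the FPKM minimum, though single members were long or well covered. Their recovered length had a median of 381 bases, from 164 for *Asa6G02611.1* to 1938 for *Asa7G01277.1*, beside 792 for all genes above the minimum and 759 for the 780 genes that rose. Under 500 bases lay 16 of the 31 (51.6%), beside 30.8% of all genes above the minimum and 30.5% of the 780. These are mostly coding lengths, since 28 of the 31 are multiples of 3, as are 94.3% of all genes. The mean number of fragments per library had a median of 61.6 over the 31 genes and 110 over all genes above the minimum. Before enlargement in Yuanjiangyangsuan, 9 genes averaged under 10 fragments, 7 had a 0 in at least 1 library and 1 had it in all 3, whereas none had a 0 in any other library. The rule did not allow a 0 in enlarging Yuanjiangyangsuan, and its FPKM minimum worked against a 0 in the other varieties. The shares over all genes above the minimum were not counted. The part of low coverage in the choice of these genes was not tested.

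By the digit before the letter G in their identifiers, 2 genes carried 0, 4 carried 1, 1 carried 2, 4 carried 3, 5 carried 4, 3 carried 5, 5 carried 6, 4 carried 7 and 3 carried 8. The shares lay between 3.23% for 2 and 16.1% for 4 and 6, beside 13.6%, 11.4% and 13.6% of all genes above the FPKM minimum for these digits. Besides *Asa4G03383.1* and *Asa4G03386.1*, a second pair, *Asa6G02599.1* and *Asa6G02611.1*, stood within 50 identifier numbers of each other, 12 apart. Of the 11 genes numbered between that pair, none rose by as much as 1 (log2) in Yuanjiangyangsuan. How fragments were shared between near-identical copies or overlapping genes was not stated, and values of genes with such copies are uncertain.

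None of the 14 identifiers that the study names for photoperiod, gibberellin and bud outgrowth was among the 31. The study gives its AXR1-like candidate as *Asa2G00503.1* in its text and as *Asa2G00253.1* in a figure caption, and both are counted here. Of the 12 that could be tested in Yuanjiangyangsuan, 7 rose and 0 fell at P under 0.05 and more than 2-fold in limma, beside 11.8% of all genes tested for a rise. *Asa2G00253.1*, with a difference of 1.76 (log2), is among the 7. The study picked several of these genes because they changed between these stages in these bulbs, so that the count is not independent evidence. Those that rose there by at least 2 (log2) were *Asa6G01110.1* (2.11), which resembles BEL5, a transcription factor of tuber formation in potato, and *Asa2G04763.1* and *Asa6G01159.1* (2.28 and 2.41), which resemble the bZIP factor TGA4. All 3 exceeded the limit of 0.5 elsewhere, *Asa6G01110.1* with 2.03 in Chalingzipisuan and 1.51 in Ershuizao, and *Asa6G01159.1* also fell short of the FPKM minimum. *Asa0G05638.1*, which resembles a GA20ox, an enzyme of gibberellin synthesis, rose by 2.00 in Yuanjiangyangsuan, 0.96 in Chalingzipisuan and 1.07 in Ershuizao. The FT-like *Asa6G06199.1*, of the family that carries the flowering signal, differed by 1.81, 1.25 and 0.49 in that order. Within 0.5 in both other varieties lay 4 of the 14, and their differences in Yuanjiangyangsuan were 0.40 for the DELLA-like *Asa2G00237.1*, which was below the FPKM minimum, -0.48 for the AXR1-like *Asa2G00503.1* and -0.51 for the YUCCA-like *Asa2G02184.1*. The fourth, the GA20ox-like *Asa4G02474.1*, was nearly undetected, at 0 to 0.064 FPKM in Yuanjiangyangsuan, and was not tested.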

How the data were processed

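Reads cleaned of adapters and poor bases were mapped to the garlic genome by the authors with HISAT2, run with its defaults, and the deposited table holds the FPKM of every gene in each of the 18 bulb libraries. The program that counted fragments, its handling of strand and copies, and the annotation's names are not given in the sources used here. Gene positions and sequences were not analysed here. Whole fragments were recovered from the steps of the FPKM values (tolerance 0.003, all 39933 genes above 0 in at least 2 libraries), which gave depths and lengths. Counts of 0 and counting intervals cover counting error only.

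The 31 genes and the lists were chosen with earlier results of these data known. Stage, level and interaction differences were fitted in R 4.3.3 (limma 3.58.1), using log2(FPKM + 0.5), which understates changes of low genes, with trend and robust moderation and Benjamini-Hochberg adjustment over all genes tested. A gene entered a fit when 3 or more of the fitted libraries reached an FPKM of 0.5. Calls needed P under 0.05 (adjusted for levels and interaction) and more than 2-fold, two-sided. An exact test of 3 against 3 libraries cannot give a P below 0.1 and was not used. Replicates were separate individuals.

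Genes given in full were, by rule, the 2 with the largest rise, the 2 most abundant under enlarging growth, the 2 largest calls in each direction of each level contrast and those nearest the limit on the rise. All others were singled out after their values were seen. Alternatives were a pseudocount of 0.1 or 1, other filters and limits of the rule, median-ratio scaling, quantile normalization, moderation without trend and robust estimation, limma voom on fragments, a replicate block and each library left out in turn. Tables and plots were made with pandas 2.3.3, numpy 2.4.6 and matplotlib 3.10.9 (Python 3.11.15).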

Additional observations from a re-analysis of the deposited data

How the results depend on the processing

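Membership depended on the settings of the rule. It found 62 genes with a pseudocount of 0.1 (25 of the 31 among them), 8 with a limit of 0.25 on the other varieties, 107 with a limit of 1 and 20 with an FPKM minimum of 5. With 1 library left out it found 21 to 44. Only 2 of the 31, *Asa1G01002.1* and *Asa8G05765.1*, were found in each of these cases, and every other member dropped out in at least 1. These 2 genes were also found under both other pseudocounts and both scalings. Of the 31 genes, 8 rather than 5 were called lower in Yuanjiangyangsuan over both stages with a pseudocount of 0.1 and 8 with limma voom. With 1 library left out, 4 to 6 were called lower and 3 to 4 higher in Yuanjiangyangsuan, 1 to 2 lower and 0 higher in Ershuizao than in Chalingzipisuan, 29 to 31 as risen in Yuanjiangyangsuan, and 7 to 23 in the interaction. The median gap lay between -1.50 and -1.19 before enlargement and between 0.82 and 1.17 under enlarging growth. Apart from the settings named here, all alternatives kept each count within 1.5 times, and the 10 differences of members named by the rule kept direction and call in all 270 cases run, which do not cover *Asa4G02090.1* outside the limit. Median-ratio scaling moved the median of all genes by at most 0.04 (log2). Libraries with the same replicate number did not deviate together (correlations of -0.25 to 0.14), and the numbers were treated as names only. With a replicate block, 4 genes were called higher and 5 lower in Yuanjiangyangsuan, 0 higher and 1 lower in Ershuizao, 31 as risen and 12 in the interaction. The causes of these shifts were not tested. Low coverage limits the genes under 10 fragments most.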
